A study of Mus musculus with 12 samples.

Results

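Atrium-like parts of heart organoids (HOs) were compared with atria of mouse embryonic hearts at E11.5 (the embryonic day) across all genes. The comparison used 6 of the 12 RNA-seq libraries of the study, 3 per tissue, chosen by the chamber and tissue that their labels name. HOs are beating structures that formed from embryoid bodies of wild-type mouse embryonic stem cells on a gel of laminin and entactin. The medium held FGF4 and later also BIO (an activator of Wnt signaling), BMP4 and leukemia inhibitory factor (LIF), and HOs were collected on day 13 of culture. The embryonic atria received no treatment, and both tissues carry the strain label C57BL/6, although the study used stem cells of C57BL/6 and of an F1 hybrid of C57BL/6 and JF1 and does not name the line behind these libraries. Atrium-like and ventricle-like parts were separated by surgical dissection with no cell sorting, so every library is a mixture of the cell types in the piece. The study calls the HOs biological replicates, but the sources used here do not give how many embryos or HOs entered a library, nor whether the replicates came from separate litters or culture runs. The p-values measure only the spread between these samples.

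The embryonic atrium at this stage is a thin wall of beating heart muscle lined by endocardium, covered by epicardium and filled with blood. Atrial muscle cells are known for a set of contractile proteins that differ from those of the ventricle, for the hormone atrial natriuretic peptide, and for fast beating set by the sinus node at their inflow. Embryoid bodies can form derivatives of all germ layers, among them mesoderm that gives rise to heart muscle and endoderm that gives rise to yolk sac, liver and gut epithelium.

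The authors deposited, for each gene and library, a number of fragments and an FPKM value (fragments scaled by transcript length and by the total of the library), and single genes are given here in FPKM for replicates 1, 2 and 3 of each group in that order. The libraries held 23971258 to 30540993 fragments on genes. Replicates correlated with each other (Pearson, log2 CPM across genes) at 0.965 to 0.971 for atria and at 0.840 to 0.913 for HO parts, and the coefficient of biological variation that edgeR estimated was 0.238 in atria and 0.629 in HO parts, so the HO libraries differed more among themselves. Fold changes compare HO atrium-like parts with E11.5 atria, are positive where HO parts were higher, and come from edgeR's quasi-likelihood test on the fragment numbers after TMM normalization. Genes were called where the p-value, adjusted over all tested genes after Benjamini and Hochberg, was below 0.05 and the log2 fold change was above 1 or below -1.

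Of 26190 genes, 15418 passed the filter on low counts and 3821 of them were called (24.8%), 2462 higher in HO atrium-like parts (16.0%) and 1359 lower (8.81%). The changes were large in both directions. Called genes with an absolute log2 fold change over 4 numbered 996 among those that rose and 245 among those that fell, while the median over all tested genes was 0.06. Among the genes that rose, 402 had at most 3 fragments in each of the 3 atria, and among those that fell, 102 had at most 3 in each HO part. Such genes passed the filter on low counts only through the group where they were higher, so a call could have only 1 direction. Without E11.5 atria replicate 1, 2 or 3 the called genes numbered 1662, 1690 or 1726, and 1443 genes (987 higher and 456 lower) kept their call and direction in each of the 6 fits that left out 1 library. The split into higher and lower moved with the test, with 64.4% of called genes higher in edgeR, 50.8% in limma-voom and 51.5% in limma on log2(FPKM + 1). Where a paragraph names calls that did not hold under other settings, the number in parentheses is out of 12 alternatives of normalization, filter, test and library set. The 12 leave out a fit with the replicate number as a block and the limit of an adjusted p under 0.01. Of 146 called genes named here, 15 lost their call with the block and 51 at the stricter limit.

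**Figure D1:**
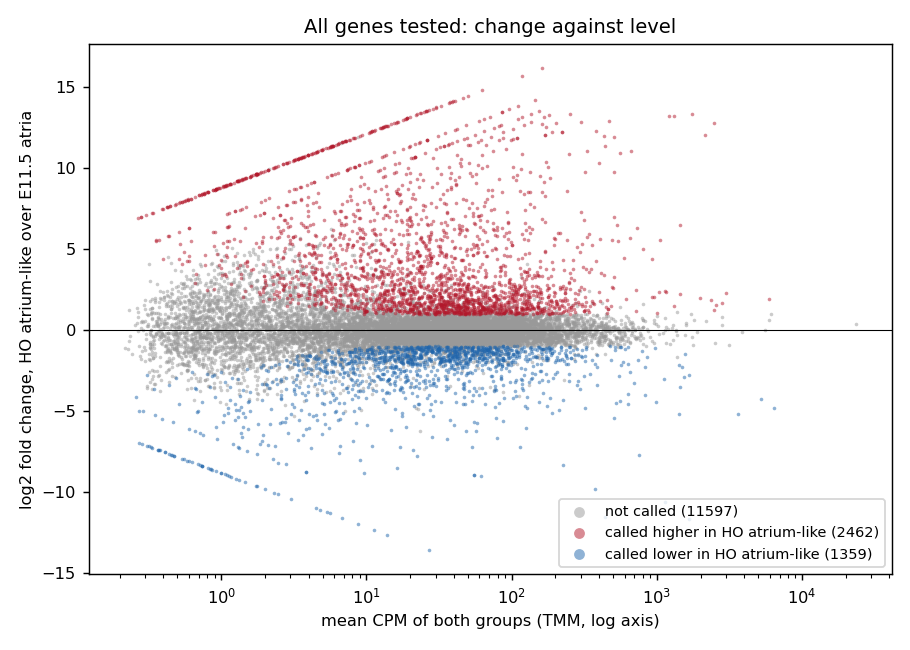
Log2 fold change of HO atrium-like parts over E11.5 atria (vertical axis) against the mean CPM of both groups (horizontal log axis), 1 point per tested gene, with the 2462 genes called higher in red, the 1359 called lower in blue and the rest in grey. Points on the straight lines at the edges are genes with no or few fragments in every library of 1 group, whose fitted change is no bound on the true one.

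The 10 largest rises, ranked by fitted log2 fold change, included genes of intestinal and hepatic epithelium. Those with no or few fragments in atria passed the filter only through HO parts and could only be called higher. Their fitted change is no bound on the true one, so their rank does not mean a larger change than that of genes outside the 10. Alpi, the intestinal alkaline phosphatase, had no fragment in any E11.5 atrium and stood at 225, 23.7 and 61.2 FPKM in HO parts, at least 3320.0-fold higher. Fgb, the beta chain of fibrinogen made by hepatocytes, was at 163, 8.01 and 142 FPKM in HO parts and 0 in atria, at least 2397-fold higher. Myo7b, a myosin of brush border microvilli, was at 19.1, 1.3 and 4.81 FPKM against 0 (at least 767-fold higher). HO part 1 was the highest and HO part 2 the lowest HO library for each of the 3 genes. The other genes among the 10 largest rises were Tmem45b (at least 1276-fold higher), Gda, a guanine deaminase (at least 1016-fold), Tmem54 (at least 942-fold, on a locus that overlaps Hpca on the opposite strand), the cytochromes Cyp2c29 (at least 823-fold) and Cyp2c55 (22335-fold (95% counting interval 4008 to 882247)), Mep1b, a protease of the brush border (at least 809-fold), and Itgb6, an epithelial integrin (at least 792-fold). Cyp2c29 and Cyp2c55 belong to a family of close copies, so their fragments may be divided among family members. Calls of this set that did not hold without 1 library were Fgb (adjusted p = 0.0526) without HO part 3. The call of Myo7b (adjusted p = 0.0503 to 0.0519) was also lost without E11.5 atria 1 or HO part 3. The call of Cyp2c29 (adjusted p = 0.0633 to 0.11) was also lost without E11.5 atria 1, 2 or 3 or HO part 3. The call of Cyp2c55 (adjusted p = 0.054) was also lost without E11.5 atria 1. The alternatives ended the calls of Alpi (1), Fgb (1), Gda (1), Tmem54 (1), Cyp2c55 (1), Cyp2c29 (2) and Myo7b (1).

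The 10 largest falls, ranked in the same way, included genes of red blood cells and platelets. Those given with an "at least" fold had no fragment in HO parts, passed the filter only through atria and could only be called lower. Their rank likewise does not mean a larger change than that of genes outside the 10. Slc4a1, the anion exchanger of the red cell membrane, was at 7.69, 16.6 and 7.77 FPKM in atria and had no fragment in HO parts, at least 446-fold lower. Hbb-y, an embryonic beta globin, fell from 3616, 7090.0 and 3820.2 FPKM to 2.31, 0.858 and 0.695 FPKM (log2 fold change -11.66, SE 0.80, adjusted p = 0.00132). Hba-x, the embryonic zeta globin, fell from 1023, 1918 and 1041 FPKM to 0.641, 0.172 and 0.358 FPKM (log2 fold change -11.51, SE 0.63, adjusted p = 0.00123). Every atrium lay above every HO part for these genes, and atria replicate 2 was the highest of the 3 atria in each. Also among the 10 largest falls were Hba-a2 (at least 188-fold lower), Tubb1, the tubulin of platelets (at least 146-fold), Mmrn1, a multimerin of platelets and endothelium (at least 114-fold), Hemgn, a nuclear protein of blood progenitors (at least 88.7-fold), Ppp1r17 (at least 231-fold), Kirrel2 (at least 93.6-fold) and the homeobox gene Hoxc5 (at least 79.7-fold). Hba-a2 and Hba-a1 are near-identical copies, and the division of fragments between them is uncertain. The call of Hoxc5 was lost without 1 library (adjusted p = 0.0684 to 0.0696 without E11.5 atria 2 or 3) and under 1 other setting, limma-voom.

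The functions that rose and fell were read from 41 lists that hold 712 genes in all. The lists and their members were chosen with earlier results of these data known. Of the lists, 26 had a positive and 15 a negative median log2 fold change. Counts of members called are to be read beside the 16.0% called higher and 8.81% called lower over all tested genes. The lists with the largest share of members called lower were red blood cells, sarcomere, epicardium, DNA replication and mitosis, and atrial genes. The lists with the largest share called higher were liver and yolk sac proteins, interferon response, lysosome, gut genes and oxidative stress response.

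**Figure D2:**
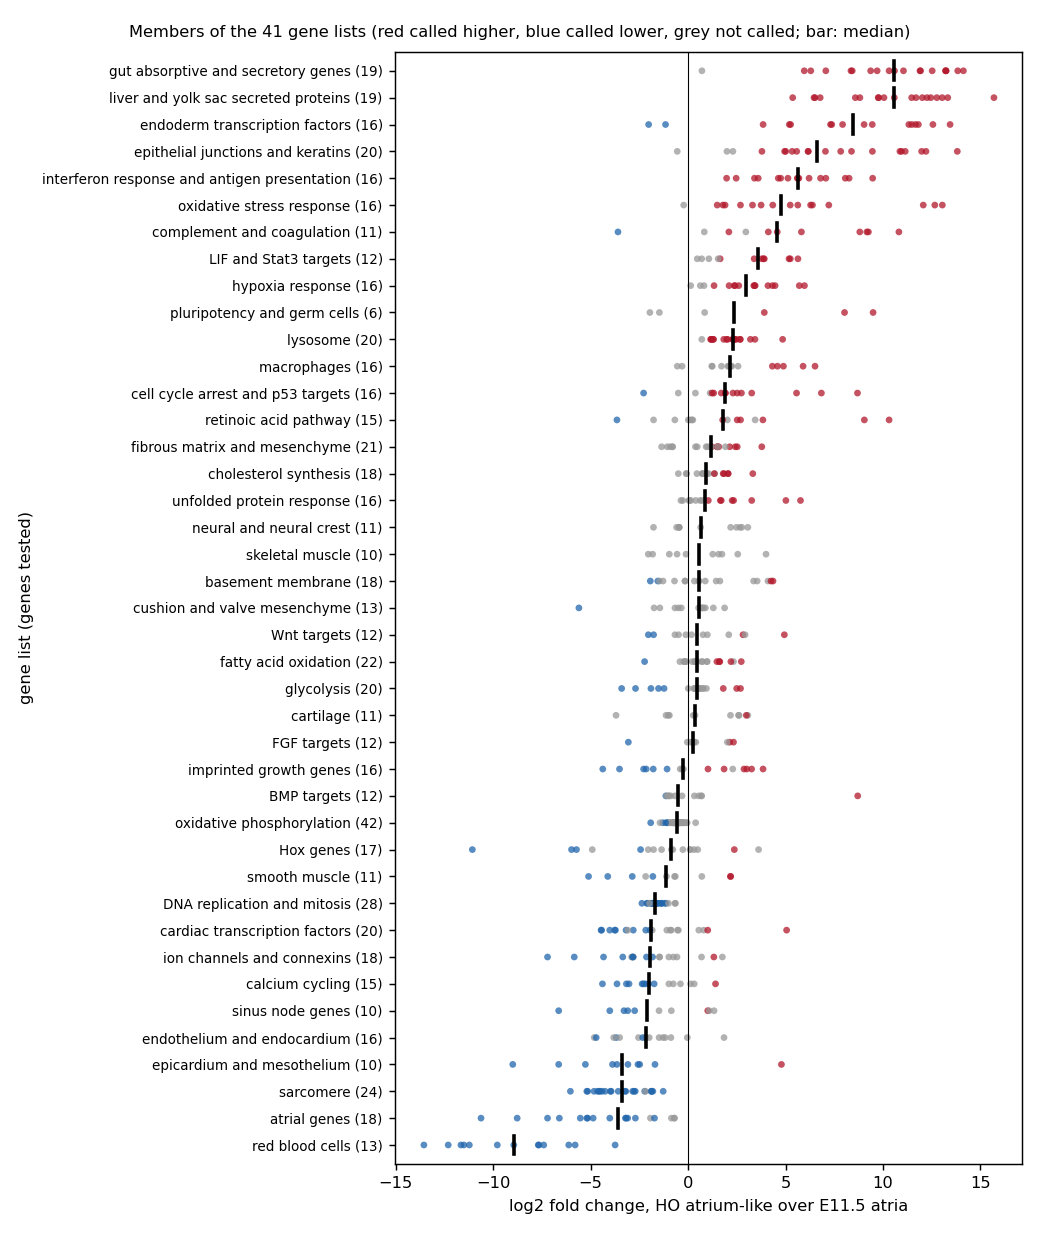
Log2 fold change of HO atrium-like parts over E11.5 atria (horizontal axis) for each tested member of the 41 gene lists (rows, ordered by their median), with members called higher in red, called lower in blue and not called in grey, and a black bar at the median. Medians run from -8.95 for red blood cells to 10.59 for gut genes.

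**Figure D3:**
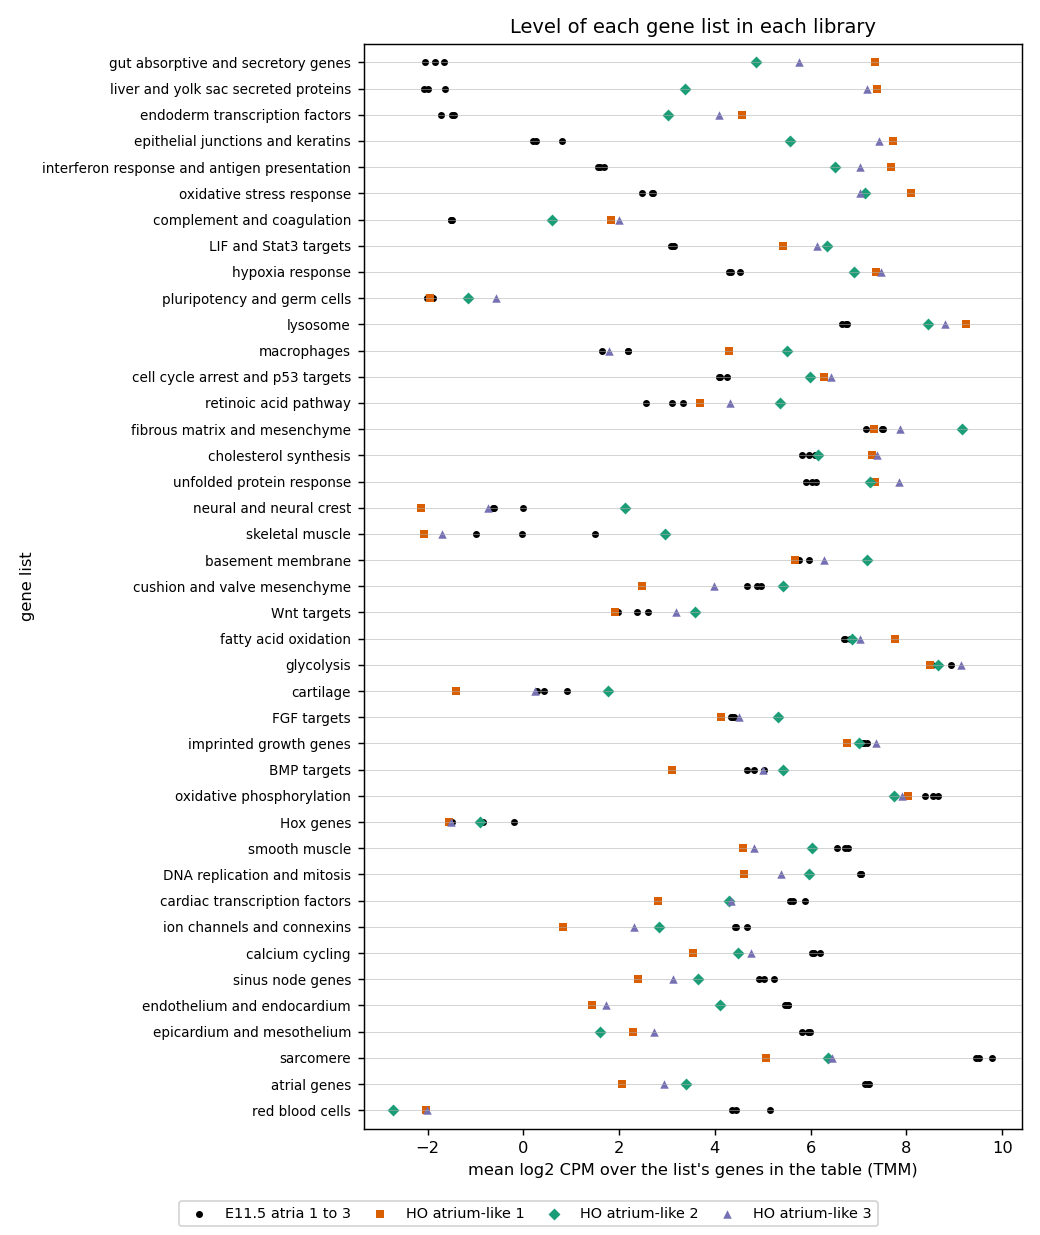
Mean log2 CPM over the genes of each list (horizontal axis) in each library, with the 3 E11.5 atria as black circles and HO atrium-like parts 1, 2 and 3 as an orange square, a green diamond and a purple triangle. The atria lie close together in nearly all rows, whereas HO part 2 stands below the other HO parts in the endoderm lists and above them in endothelium, mesenchyme, neural and skeletal muscle lists.

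Heart muscle genes fell. Of 24 tested genes of the sarcomere, the contractile unit of muscle, 22 were called lower and 0 higher, with a median log2 fold change of -3.42 beside 0.06 over all genes, and 19 kept the call in all 6 fits without 1 library. The list took 4.82% to 5.53% of all fragments in atria and 0.155%, 0.41% and 0.433% in HO parts 1 to 3. Fewer muscle cells and less of these RNAs per muscle cell cannot be told apart in RNA from whole pieces. Myl7, the atrial regulatory myosin light chain, stood at 11545, 9495 and 11168 FPKM in atria and 115, 291 and 415 in HO parts (log2 fold change -5.16, SE 0.49, adjusted p = 0.00211). Actc1, cardiac alpha actin, stood at 8697, 7425 and 6901 FPKM in atria and 83.1, 439 and 235 in HO parts (log2 fold change -4.83, SE 0.57, adjusted p = 0.0036). HO part 1 was the lowest library for both genes, and no HO part came near the atria. Tnnc1, cardiac troponin C, stood at 2589.5, 2095 and 2414 FPKM in atria and 40.4, 182 and 87.7 in HO parts (log2 fold change -4.42, SE 0.50, adjusted p = 0.00338). Myl4, the atrial essential light chain, stood at 2173, 1869 and 2145 FPKM in atria and 19.7, 66.6 and 68.3 in HO parts (log2 fold change -5.20, SE 0.48, adjusted p = 0.00202). Myh6, the fast alpha myosin heavy chain of atria, went from 1484, 1589 and 1328 FPKM to 28.8, 82.5 and 98.3 FPKM (log2 fold change -4.26, SE 0.45, adjusted p = 0.0027). Tnnt2, cardiac troponin T, went from 951, 842 and 943 FPKM to 30.6, 97.2 and 135 FPKM (log2 fold change -3.25, SE 0.49, adjusted p = 0.00662). All 3 HO parts held transcripts of heart muscle, with fitted levels 9.48 to 36.7 times lower than in atria for these 6 genes. Endoderm genes moved the opposite way. The liver and yolk sac list took 3.36%, 0.189% and 1.45% of fragments in the HO parts, and in HO part 2, where it was lowest, the sarcomere list stood between its values in HO parts 1 and 3. The part of the endoderm genes in the fall was not tested.

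Actc1 and Myl7 carry a CArG box, the element that serum response factor binds in muscle genes, close to their start. Their promoters are shown because these genes had the highest mean FPKM in atria among those that fell, and they run from 250 bases before to 50 bases after the gene start (RefSeq, GRCm38.p6, minus strand for both, chr2:114052826-114053125 and chr11:5898733-5899032), with the box in capital letters. The box starts at position -47 from the start of Actc1 and at -61 from the start of Myl7. Of the 31 RefSeq promoters that matched 22 sarcomere genes, 7 held a CArG box (22.6%), beside 1.63% of 32851 promoters in all and 2.02% of the promoters of genes called lower. The 7 count both overlapping windows of Ldb3 (chr14:34588558-34588857 and chr14:34588632-34588931), which may hold the same box. The match is of letters alone.
Actc1: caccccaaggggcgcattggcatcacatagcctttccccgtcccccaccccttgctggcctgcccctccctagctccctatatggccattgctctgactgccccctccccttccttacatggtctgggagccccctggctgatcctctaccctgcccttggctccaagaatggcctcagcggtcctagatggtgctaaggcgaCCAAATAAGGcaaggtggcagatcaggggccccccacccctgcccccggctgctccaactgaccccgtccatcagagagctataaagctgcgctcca
Myl7: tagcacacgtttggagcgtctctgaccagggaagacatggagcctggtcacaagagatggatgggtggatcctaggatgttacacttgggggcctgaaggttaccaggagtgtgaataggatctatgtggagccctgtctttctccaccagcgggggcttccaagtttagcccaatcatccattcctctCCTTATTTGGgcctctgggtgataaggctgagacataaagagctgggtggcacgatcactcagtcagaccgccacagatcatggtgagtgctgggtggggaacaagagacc

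Atrial genes fell, with 14 of 18 tested members called lower, 0 higher and a median of -3.62, and 13 calls held in all 6 fits without 1 library. Nppa, the gene of atrial natriuretic peptide, was at 2810.0, 1925 and 2392 FPKM in atria and 0.528, 1.063 and 2.43 in HO parts. Its fall (log2 fold change -10.63, SE 0.69, adjusted p = 0.00123) was larger than those of the sarcomere genes above, and whether they differ was not tested. Bmp10, a growth factor of heart muscle, was at 5.46, 4.88 and 5.23 FPKM in atria and at 0, 0 and 0.0232 FPKM in HO parts, a ratio of 587-fold (95% counting interval 105 to 23231). Nppb, the gene of brain natriuretic peptide, was at 206, 101 and 67.6 FPKM in atria and 3.09, 1.25 and 2.01 in HO parts (log2 fold change -5.68, SE 0.66, adjusted p = 0.00352). Kcnj3, a subunit of the acetylcholine-gated potassium channel, was at 4.46, 6.08 and 5.33 FPKM in atria and 0.0804, 0.232 and 0.177 in HO parts (log2 fold change -4.87, SE 0.40, adjusted p = 0.00153). These groups did not overlap, as was the case for 54.4% of all tested genes in FPKM, 24.1% with HO parts higher and 30.3% with HO parts lower. Nr2f2, a nuclear receptor that sets atrial identity, fell from 17.5, 16.6 and 16.7 FPKM to 3.37, 6.72 and 3.84 FPKM (log2 fold change -1.72, SE 0.23, adjusted p = 0.00458, on a locus with an antisense transcript). Stard10 (95.7, 95 and 108 FPKM in atria and 62.8, 23.5 and 54.5 in HO parts) and Sln, the regulator sarcolipin (55.5, 61.1 and 77.2 FPKM in atria and 10.01, 34.2 and 3.19 in HO parts), did not pass the test.

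Of the sinus node list, 5 of 10 tested genes were called lower and 1 higher (median -2.12), and 5 calls held in all 6 fits without 1 library. Shox2, a homeobox factor required for the pacemaker, stood at 12.7, 15.3 and 14.4 FPKM in atria and 0.525, 1.3 and 0.556 in HO parts (log2 fold change -4.02, SE 0.36, adjusted p = 0.00192). Tbx18, which marks the sinus horns and epicardium, stood at 26.8, 32.0 and 32.4 FPKM in atria and 0.119, 0.492 and 0.223 in HO parts (log2 fold change -6.64, SE 0.48, adjusted p = 0.00132). Hcn4, the pacemaker channel, stood at 10.4, 13.7 and 10.8 FPKM in atria and 0.462, 1.46 and 1.33 in HO parts (log2 fold change -3.29, SE 0.39, adjusted p = 0.00369). All HO parts lay well below all atria for the 3 genes. Smoc2, a matricellular protein, fell with a log2 fold change of -2.74 (adjusted p = 0.00211). Gjc1, connexin 45, did not pass the test at 18.9, 20.5 and 17.9 FPKM in atria and 1.73, 10.8 and 6.48 in HO parts. Tbx3, a repressor of working muscle genes in the conduction system, went the other way, from 11.7, 10.4 and 7.71 FPKM to 14.2, 21.8 and 17.8 FPKM (log2 fold change 1.01, SE 0.20, adjusted p = 0.0143). Tbx3 was close to the fold limit and lost its call without 1 library (log2 fold change 0.84 to 1.02 without E11.5 atria 2 or 3 or HO part 2 or 3). Alternative settings removed the call of Tbx3 (7).

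Among cardiac transcription factors, 9 of 20 were called lower and 2 higher, with a median of -1.90. Nkx2-5, the homeobox factor of heart muscle, stood at 88.2, 78.3 and 82.2 FPKM in atria and 2.34, 3.9 and 10.1 in HO parts (log2 fold change -3.77, SE 0.55, adjusted p = 0.00591). Tbx5, the T-box factor of the atria and left ventricle, stood at 42.0, 48.9 and 39.9 FPKM in atria and 1.95, 5.78 and 5.41 in HO parts (log2 fold change -3.18, SE 0.37, adjusted p = 0.00352). Of the GATA factors, which heart muscle shares with endoderm, Gata5, named after its values were seen, fell from 41.9, 37.2 and 26.2 to 2.82, 6.36 and 4.43 FPKM (log2 fold change -2.81, SE 0.30, adjusted p = 0.00275). Gata4 was at 106, 102 and 93.1 FPKM in atria and 35.6, 111 and 44.3 in HO parts. Gata6 was at 53.7, 62.3 and 56.9 FPKM in atria and 37.0, 40.4 and 30.7 in HO parts. Gata4 and Gata6 did not pass the test, and Gata4 in HO part 2 was above all atria. Hand1 rose from 0.789, 0.172 and 0.6 FPKM to 3.3, 2.25 and 40.9 FPKM (log2 fold change 5.05, SE 1.38, adjusted p = 0.0351), with HO part 3 far above the other HO parts, and like Tbx3 it was called opposite to the list. The call of Hand1 was lost without several single libraries (adjusted p = 0.0713 to 0.116 without E11.5 atria 1, 2 or 3 or HO part 3) and under 2 other settings.

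Of the genes of calcium cycling and of the action potential, some were called lower. Of 15 tested calcium genes 9 were called lower and 1 higher (median -2.03), and of 18 channel and connexin genes 8 lower and 1 higher (median -1.98). Atp2a2, the calcium pump of the sarcoplasmic reticulum, stood at 372, 436 and 361 FPKM in atria and 33.8, 117 and 70.2 in HO parts (log2 fold change -2.29, SE 0.37, adjusted p = 0.00789). Ryr2, the calcium release channel, stood at 12.8, 12.1 and 12.9 FPKM in atria and 0.422, 1.5 and 1.93 in HO parts (log2 fold change -3.17, SE 0.50, adjusted p = 0.00722). Both were lowest in HO part 1. Jph2, which ties the reticulum to the cell membrane, went from 46.3, 44.7 and 40.5 to 2.82, 5.55 and 6.16 FPKM (log2 fold change -3.03, SE 0.27, adjusted p = 0.00192). Slc8a1, the sodium-calcium exchanger, went from 28.9, 25.5 and 24.5 to 0.372, 2.29 and 3.13 FPKM (log2 fold change -3.65, SE 0.70, adjusted p = 0.0125). Pln, the pump inhibitor phospholamban, did not pass the test at 19.1, 13.4 and 15.95 FPKM in atria and 1.82, 11.6 and 9.39 in HO parts. S100a1, a calcium sensor of muscle, was the exception and rose from 86.4, 70.9 and 62.3 to 209.6, 121 and 173 FPKM (log2 fold change 1.41, SE 0.31, adjusted p = 0.0189). Gja5, connexin 40 of atrial muscle and arteries, stood at 60.6, 66.9 and 64.8 FPKM in atria and 0.011, 1.22 and 0.00966 in HO parts (log2 fold change -7.21, SE 1.54, adjusted p = 0.0171), with nearly all of its HO signal in part 2. Gja1, connexin 43, ran from below to above the atria, at 37.7, 38.0 and 37.5 FPKM in atria and 12.7, 106 and 53.1 in HO parts, and did not pass the test. Cacna2d2, a calcium channel subunit, and Kcnh2, a repolarizing potassium channel, fell (log2 fold change -4.34, SE 1.01, adjusted p = 0.0216 and log2 fold change -1.82, SE 0.52, adjusted p = 0.0391), and Trpm4, a cation channel also found in epithelia, rose (log2 fold change 1.32, SE 0.38, adjusted p = 0.0403). Without E11.5 atria replicate 1, 2 or 3, only 3, 4 or 4 calcium genes and 2, 2 or 2 channel genes stayed called lower. Single calls lost on leaving out 1 library were Slc8a1 (adjusted p = 0.0508) without E11.5 atria 1. The calls of S100a1 (adjusted p = 0.0581 to 0.083) and Kcnh2 (adjusted p = 0.0588 to 0.115) were also lost without E11.5 atria 1, 2 or 3 or HO part 3. The calls of Gja5 (adjusted p = 0.0587 to 0.0615) and Cacna2d2 (adjusted p = 0.0654 to 0.0714) were also lost without E11.5 atria 1, 2 or 3. The call of Trpm4 (adjusted p = 0.0816 to 0.14) was also lost without E11.5 atria 1, 2 or 3 or HO part 1 or 3. Other settings ended the call of Trpm4 (2).

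**Figure D4:**
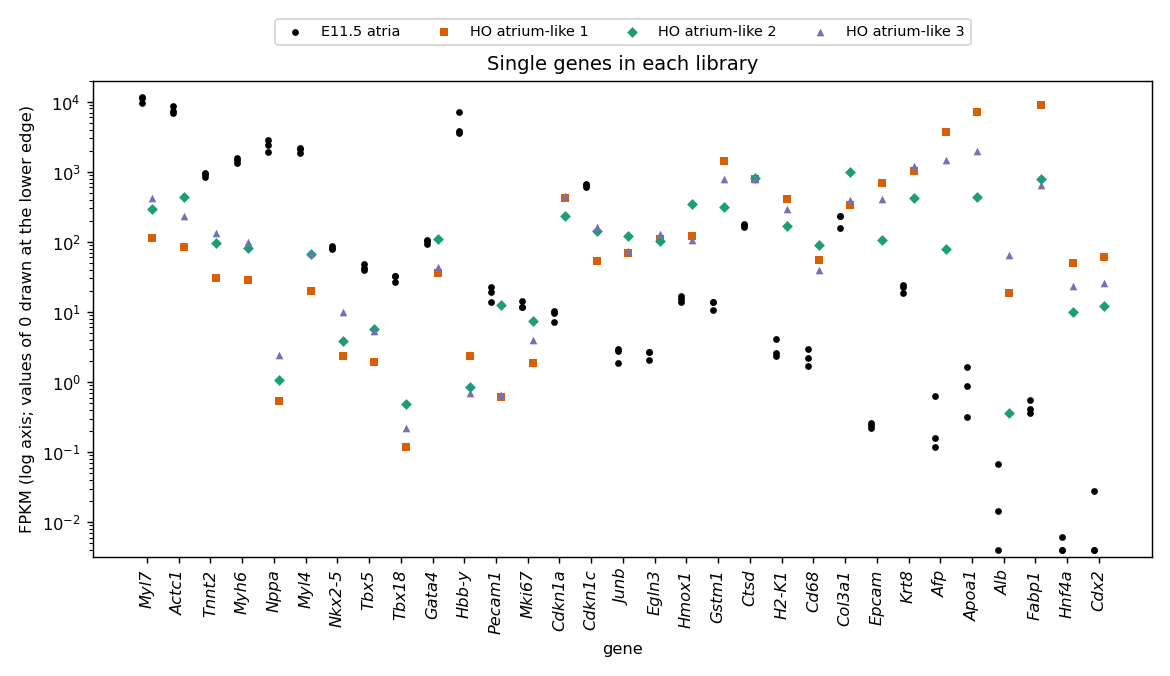
FPKM (log axis) of 31 genes in each library, with E11.5 atria as black circles on the left of each gene and HO atrium-like parts 1, 2 and 3 as an orange square, a green diamond and a purple triangle on the right. Genes of heart muscle, blood and proliferation lie lower in HO parts, genes of stress, lysosome, antigen presentation and endoderm lie higher, and Gata4 overlaps between the groups.

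In oxidative phosphorylation, 5 of 42 tested genes were called lower and 0 higher, with a median of -0.57. Over all tested genes 8.81% were called lower and 16.0% higher. The annotated KEGG pathway of the same name had 111 tested genes, with 13 called higher (11.7%) and 8 lower (7.21%) and a median of -0.42. All but 1 of the 42 had a negative log2 fold change, and 20 were lower at an adjusted p below 0.05 when no fold limit was set. Under that rule 1934 of all 15418 tested genes were lower. The list took 2.24% to 2.5% of fragments in atria and 1.41%, 1.32% and 1.32% in HO parts. Atp5b, the catalytic subunit of ATP synthase, was at 1991, 1907 and 1963 FPKM in atria and 909, 1038 and 831 in HO parts. Of the cytochrome oxidase subunits, Cox6b1 was at 1377, 1205 and 1347 FPKM in atria and 828, 779 and 803 in HO parts. Cox4i1 was at 957, 855 and 965 FPKM in atria and 709, 587 and 613 in HO parts and Cox6c at 954, 775 and 881 FPKM in atria and 561, 681 and 684 in HO parts. All atria lay above all HO parts for these 4 genes, but none was called. The members called lower were Ndufb8, Ndufs1, Cycs, Cox7a1 and Atp5o, named after their values were seen. Without HO part 1 the list had 10 calls lower in place of 5.

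Fatty acid oxidation genes had 5 of 22 members called higher and 1 lower (median 0.46). Cpt1b, the muscle form of the enzyme that brings fatty acids into mitochondria, was the member that fell, from 44.4, 48.1 and 40.5 to 3.53, 10.4 and 11.8 FPKM (log2 fold change -2.23, SE 0.39, adjusted p = 0.0101). The 4 most abundant members were not called. Etfb was at 339.6, 308 and 336 FPKM in atria and 356, 199 and 199 in HO parts. Acaa2 was at 241, 211 and 239 FPKM in atria and 536, 199.6 and 215 in HO parts and Acadl at 132, 116 and 117 FPKM in atria and 312, 135 and 155 in HO parts, each of the 3 with its highest value in HO part 1. Fabp3, the fatty acid carrier of heart muscle, was at 237, 200.2 and 197 FPKM in atria and 23.7, 270.1 and 154 in HO parts and lowest in that library. The list's count of rises ran from 2 without E11.5 atria replicate 1, 2 or 3 to 8 without HO part 2.

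Glycolysis held members that moved in both directions, with 3 of 20 called higher and 5 lower (median 0.45). Slc2a3, a glucose transporter, rose from 8.63, 7.97 and 4.33 to 9.57, 30.5 and 82.0 FPKM (log2 fold change 2.69, SE 0.75, adjusted p = 0.0372). Hk2, a hexokinase, rose from 7.37, 4.75 and 4.89 to 9.09, 23.8 and 21.4 FPKM (log2 fold change 1.80, SE 0.35, adjusted p = 0.0133). Aldoc, the brain-type aldolase, rose from 4, 2.94 and 3.12 to 17.3, 12.9 and 19.3 FPKM (log2 fold change 2.49, SE 0.29, adjusted p = 0.00353). The members called lower were Hk1, Pfkm, Pgam2, Eno3 and Ldhb, of which Pfkm, Pgam2 and Eno3 are forms of muscle, and they were named after their values were seen. The 4 most abundant enzymes were not called, starting with Gapdh at 3648, 3111 and 3251 FPKM in atria and 2851, 2543 and 3462 in HO parts. Eno1 was at 1456, 1266 and 1136 FPKM in atria and 1351, 1386 and 1483 in HO parts. Aldoa was at 1020.4, 810.2 and 759 FPKM in atria and 988, 1089 and 1361 in HO parts and Ldha at 1234, 899 and 780.5 FPKM in atria and 1446, 1423 and 1563 in HO parts. Of these, Ldha lay above the atria in all HO parts. Calls lost without 1 library were Slc2a3 (adjusted p = 0.072 to 0.126) without E11.5 atria 1, 2 or 3 or HO part 3. The call of Hk2 (adjusted p = 0.0639 to 0.0644) was also lost without E11.5 atria 2 or 3. The alternatives ended the call of Slc2a3 (3).

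In cholesterol synthesis, 6 of 18 genes were called higher and 0 lower (median 0.94). Insig1, a sterol sensor that brakes the pathway, stood at 11.96, 13.1 and 9.88 FPKM in atria and 136, 47.1 and 114 in HO parts (log2 fold change 3.32, SE 0.48, adjusted p = 0.00598). Msmo1, a methylsterol oxidase, stood at 43.8, 55.6 and 38.2 FPKM in atria and 151, 65.1 and 208 in HO parts (log2 fold change 1.84, SE 0.46, adjusted p = 0.0276). Of the HO libraries part 2 was lowest for both, and it lay inside or near the range of the atria for Fdps (89.1, 89.8 and 86.3 FPKM in atria and 175, 80.1 and 191 in HO parts) and Hmgcs1 (48.2, 53.9 and 44.6 FPKM in atria and 74.8, 48.6 and 118 in HO parts), which were not called. The count was 2 without E11.5 atria replicate 1, 2 or 3, 3 without HO part 3 and 12 without HO part 2, and the call of Msmo1 was among those lost (adjusted p = 0.0567 to 0.106 without E11.5 atria 1, 2 or 3 or HO part 1 or 3).

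Genes of cell division fell and genes that hold the cell cycle rose. Of 28 replication and mitosis genes, 23 were called lower and 0 higher (median -1.68), and their share of fragments was 0.443% to 0.459% in atria and 0.0732%, 0.212% and 0.133% in HO parts. Ccnb1, the cyclin of mitotic entry, stood at 108, 104 and 101 FPKM in atria and 13.7, 45.5 and 29.2 in HO parts (log2 fold change -1.71, SE 0.34, adjusted p = 0.0146). Rrm2, which makes deoxynucleotides for replication, stood at 104, 106 and 109 FPKM in atria and 8.06, 39.4 and 22.9 in HO parts (log2 fold change -2.08, SE 0.46, adjusted p = 0.019). Mki67, the proliferation antigen Ki-67, stood at 11.6, 11.6 and 14.3 FPKM in atria and 1.89, 7.43 and 3.98 in HO parts (log2 fold change -1.39, SE 0.40, adjusted p = 0.0414). HO part 2 was the highest and HO part 1 the lowest of the HO libraries for these genes, and all were below the atria. Pcna, the replication clamp, was at 114, 111 and 108 FPKM in atria and 53.8, 75.7 and 57.2 in HO parts and Cdc20, the activator of mitotic exit, at 82.8, 89.7 and 99.5 FPKM in atria and 20.1, 62.2 and 41.9 in HO parts, and neither was called. All 28 members had a negative log2 fold change, but the number called dropped to 5, 4 or 6 without E11.5 atria replicate 1, 2 or 3 and to 10 without HO part 3, with list medians of -2.04 to -1.43 over the 6 fits without 1 library. The genes named here that lost their call were Ccnb1 (adjusted p = 0.0549 to 0.0607) without E11.5 atria 1, 2 or 3. The calls of Rrm2 (adjusted p = 0.0582 to 0.0685) and Mki67 (adjusted p = 0.101 to 0.125) were also lost without E11.5 atria 1, 2 or 3 or HO part 3. Alternative settings removed the call of Mki67 (1).

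Of 16 genes of cell cycle arrest and p53 response, 12 were called higher and 1 lower (median 1.91), with 8, 7 or 7 rises left without E11.5 atria replicate 1, 2 or 3. The annotated KEGG pathway of p53 signaling had 21 of 68 genes called higher (30.9%) and 11 lower (16.2%), with a median of 0.17. Cdkn1a, the cyclin-dependent kinase inhibitor p21, stood at 10.2, 7.14 and 9.5 FPKM in atria and 423, 232 and 447 in HO parts (log2 fold change 5.56, SE 0.42, adjusted p = 0.00133). Phlda3, an inhibitor of Akt and a p53 target, stood at 40.6, 36.3 and 37.4 FPKM in atria and 92.2, 112 and 127 in HO parts (log2 fold change 1.70, SE 0.16, adjusted p = 0.00215). Ccng1, cyclin G1, stood at 54.4, 48.2 and 52.7 FPKM in atria and 117, 85.0 and 117 in HO parts (log2 fold change 1.23, SE 0.23, adjusted p = 0.0122). The groups did not overlap for these genes. Cdkn1c, the imprinted inhibitor p57 that is abundant in embryonic heart, was the member that fell, from 603, 654 and 662 to 53.04, 144 and 162 FPKM (log2 fold change -2.28, SE 0.37, adjusted p = 0.00762). In the list of imprinted growth genes 6 of 16 were called higher and 6 lower, or 3, 3 or 3 higher without E11.5 atria replicate 1, 2 or 3. H19, an imprinted noncoding RNA, rose from 415, 362 and 433 to 1543, 646 and 1552 FPKM (log2 fold change 1.85, SE 0.42, adjusted p = 0.0196). Mest fell from 888, 809.5 and 910.5 to 12.2, 165 and 41.5 FPKM (log2 fold change -3.52, SE 0.84, adjusted p = 0.0233, on a locus shared with Copg2). Igf2, the fetal growth factor beside H19, was at 412, 366 and 411 FPKM in atria and 234, 182 and 372 in HO parts and was not called. Calls lost without 1 library were Ccng1 (adjusted p = 0.0555 to 0.0631) without E11.5 atria 1, 2 or 3. The calls of H19 (adjusted p = 0.063 to 0.0851) and Mest (adjusted p = 0.0691 to 0.0746) were also lost without E11.5 atria 1, 2 or 3 or HO part 3.

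Most epicardial genes fell. Of 10 epicardial and mesothelial genes, 9 were called lower and 1 higher (median -3.37). Aldh1a2, the enzyme of retinoic acid synthesis in epicardium, stood at 43.1, 69.6 and 57.0 FPKM in atria and 5.26, 4.6 and 1.93 in HO parts (log2 fold change -3.65, SE 0.45, adjusted p = 0.00388). Upk3b, a mesothelial uroplakin, stood at 137, 115 and 136 FPKM in atria and 16.96, 5.22 and 16.8 in HO parts (log2 fold change -3.09, SE 0.53, adjusted p = 0.00908). Tcf21, a factor of epicardium-derived cells, stood at 75.8, 64.3 and 57.1 FPKM in atria and 25.5, 15.6 and 11.4 in HO parts (log2 fold change -1.70, SE 0.38, adjusted p = 0.0188). None of these groups overlapped. Wt1, the Wilms tumor factor of epicardium, fell from 5.88, 6.77 and 5.75 to 0.226, 2.31 and 0.586 FPKM (log2 fold change -2.48, SE 0.74, adjusted p = 0.0462). Upk1b, a uroplakin, fell from 43.1, 33.2 and 34.3 to 4.9, 1.56 and 9.65 FPKM (log2 fold change -2.57, SE 0.65, adjusted p = 0.0277). Msln, mesothelin, which is also made by epithelia, rose from 0.704, 1.15 and 1.07 to 38.4, 3.23 and 25.4 FPKM (log2 fold change 4.79, SE 0.97, adjusted p = 0.0147). The count of falls was 5 without E11.5 atria replicate 1, 2 or 3, and the calls lost among these genes were Tcf21 (adjusted p = 0.0515 to 0.0745) and Wt1 (adjusted p = 0.112 to 0.124) without E11.5 atria 1, 2 or 3 or HO part 3. The call of Upk1b (adjusted p = 0.0602 to 0.0908) was also lost without E11.5 atria 1, 2 or 3 or HO part 1. The call of Msln (adjusted p = 0.0639 to 0.0709) was also lost without E11.5 atria 1, 2 or 3. Other settings ended the calls of Upk3b (1), Tcf21 (1), Wt1 (2), Upk1b (1) and Msln (1).

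Endothelial and endocardial genes differed between the HO libraries. Of 16 genes 3 were called lower and 0 higher, although the median was -2.17. The mean log2 CPM of the list was 5.47 to 5.53 in atria and 1.44, 4.12 and 1.73 in HO parts 1, 2 and 3. Tek, the receptor of angiopoietins, was at 29.4, 33.0 and 32.0 FPKM in atria and 0.297, 6.16 and 0.0784 in HO parts, and Tie1 at 26.1, 30.9 and 34.3 FPKM in atria and 0.243, 7.61 and 0 in HO parts. Pecam1, the endothelial adhesion molecule CD31, was at 13.98, 23.0 and 19.01 FPKM in atria and 0.619, 12.4 and 0.654 in HO parts, and Ramp2 at 89.7, 98.8 and 90.1 FPKM in atria and 4.05, 81.6 and 23.8 in HO parts. HO part 2 stood well above the other HO parts and below the atria for these 4 genes, none of which was called. Egfl7, a secreted endothelial protein, was at 17.7, 18.3 and 21.2 FPKM in atria and 8.03, 26.0 and 17.1 in HO parts. The list had 12 calls lower without HO part 2, 0 without E11.5 atria replicate 1, 2 or 3, 9 with DESeq2 and 11 with limma-voom.

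Smooth muscle genes had 4 of 11 members called lower and 2 higher (median -1.11). Acta2, Cnn1 and Des, which embryonic heart muscle also expresses, were among those that fell. Acta2, smooth muscle alpha actin, stood at 1069.5, 919.6 and 878 FPKM in atria and 50.3, 229 and 88.4 in HO parts (log2 fold change -2.87, SE 0.49, adjusted p = 0.00936). Cnn1, calponin, stood at 173, 175 and 154 FPKM in atria and 1.92, 9.03 and 2.66 in HO parts (log2 fold change -5.11, SE 0.58, adjusted p = 0.00339). Des, desmin, fell from 234, 217 and 216 to 23.2, 99.1 and 54.6 FPKM (log2 fold change -1.81, SE 0.42, adjusted p = 0.0218). Tagln, transgelin, was not called at 265, 215 and 163 FPKM in atria and 38.3, 149 and 87.9 in HO parts. Mylk, myosin light chain kinase, rose from 1.98, 1.36 and 2.39 to 10.6, 7.47 and 4.42 FPKM (log2 fold change 2.17, SE 0.42, adjusted p = 0.0133). Actg2, the actin of visceral smooth muscle, rose from 12.2, 14.2 and 9.25 to 16.7, 108 and 29.1 FPKM (log2 fold change 2.18, SE 0.62, adjusted p = 0.0404). Actg2 was highest in HO part 2. Losses without 1 library were Des (adjusted p = 0.0649 to 0.0779) and Actg2 (adjusted p = 0.0594 to 0.136) without E11.5 atria 1, 2 or 3 or HO part 3. The call of Mylk (adjusted p = 0.059 to 0.0608) was also lost without E11.5 atria 1 or 2. The alternatives ended the call of Actg2 (4).

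Fibrous matrix rose in part. Of 21 genes of fibrous matrix and mesenchyme, 8 were called higher and 0 lower (median 1.18), and the list took 0.668% to 0.837% of fragments in atria and 0.716%, 2.59% and 1.05% in HO parts. Col3a1, the chain of type III collagen, stood at 159, 237 and 237 FPKM in atria and 332, 1000.0 and 400.0 in HO parts (log2 fold change 1.57, SE 0.39, adjusted p = 0.0262). Col1a1, a chain of type I collagen, stood at 89.0, 115 and 107 FPKM in atria and 137, 512 and 176 in HO parts (log2 fold change 1.51, SE 0.44, adjusted p = 0.0418). The highest library for both was HO part 2, as for Col1a2 (124, 161 and 164 FPKM in atria and 171, 582 and 170.1 in HO parts) and the collagen-binding protein Sparc (381, 389.8 and 403 FPKM in atria and 235, 1250.0 and 703 in HO parts), which were not called. The median was 0.47 to 1.40 in the fits without 1 library, lowest without HO part 2. The count of rises was 1, 2 or 2 without E11.5 atria replicate 1, 2 or 3, and without HO part 2 the list had 5 calls higher and 5 lower. The collagen calls lost without 1 library were Col3a1 (adjusted p = 0.0851 to 0.106) without E11.5 atria 1, 2 or 3. The call of Col1a1 (log2 fold change 0.84 to 1.70) was also lost without E11.5 atria 1, 2 or 3 or HO part 2 or 3. Alternative settings removed the calls of Col3a1 (1) and Col1a1 (5).

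In the cushion and valve list 1 of 13 genes was called lower and 0 higher. That gene was Hapln1, which links hyaluronan in the cardiac jelly, at 37.6, 28.7 and 25.4 FPKM in atria and 0.0415, 1.11 and 0.614 in HO parts (log2 fold change -5.60, SE 0.95, adjusted p = 0.00907). Prrx2 was at 88.8, 98.6 and 87.9 FPKM in atria and 2.04, 63.6 and 13.7 in HO parts. Sox9, a factor of cushion and cartilage cells, was at 21.6, 15.9 and 15.4 FPKM in atria and 21.9, 48.9 and 8.88 in HO parts. Tbx2, a factor of the atrioventricular canal, was at 11.52, 12.6 and 8.81 FPKM in atria and 9.34, 20.5 and 21.9 in HO parts, and none of them was called. The basement membrane list, which holds the chains of the laminin and collagen IV sheet under epithelia and vessels, had 2 of 18 genes called higher and 2 lower. Lama1, the laminin alpha chain of early epithelia, was at 1.08, 1.96 and 1.03 FPKM in atria and 0.51, 63.1 and 4.6 in HO parts and was not called, and HO part 2 was far above the other HO parts. The same library was the highest for Col4a1 (52.4, 57.3 and 51.1 FPKM in atria and 47.2, 327 and 98.3 in HO parts), for Col4a2 (39.1, 47.8 and 40.2 FPKM in atria and 39.7, 209.8 and 73.4 in HO parts), which overlaps Col4a1 head to head, and for Lamb1 (42.7, 47.1 and 40.0 FPKM in atria and 11.47, 133 and 38.7 in HO parts), none of them called. Col18a1 was at 74.0, 95.02 and 93.6 FPKM in atria and 11.3, 58.3 and 19.5 in HO parts, lower in all HO parts, and was not called.

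Red blood cell genes fell in all HO parts, while macrophage genes differed between the HO libraries. The mean level of the macrophage list was above the atria in HO parts 1 and 2 and inside their range in HO part 3. All 13 tested red blood cell genes were called lower (median -8.95, or -7.55 with the 4 genes of at most 3 fragments over the HO parts set at their bound), and the list took 0.525% to 1.02% of fragments in atria and 0.00189%, 0.000236% and 0.000743% in HO parts. The 4 genes passed the filter only through atria and could only be called lower. Beside the genes above, Hba-a1, adult alpha globin, stood at 1732, 3497 and 2047 FPKM in atria and 21.4, 0.633 and 6.66 in HO parts (log2 fold change -7.69, SE 1.36, adjusted p = 0.0101). Hbb-bh1, an embryonic beta globin, stood at 884, 1702 and 761 FPKM in atria and 2.29, 0.435 and 0.504 in HO parts (log2 fold change -9.79, SE 0.95, adjusted p = 0.00224). HO part 1 held the highest globin values among the HO parts. Of 16 macrophage genes, 6 were called higher and 0 lower (median 2.17), with a mean log2 CPM of 1.64 to 2.18 in atria and 4.29, 5.51 and 1.78 in HO parts. Cd68, a lysosomal glycoprotein of macrophages, stood at 1.68, 2.98 and 2.2 FPKM in atria and 54.3, 88.9 and 39.5 in HO parts (log2 fold change 4.89, SE 0.37, adjusted p = 0.00133). Lyz2, the macrophage lysozyme and a close copy of Lyz1, stood at 3.69, 9.39 and 7.2 FPKM in atria and 22.3, 438 and 13.9 in HO parts (log2 fold change 4.58, SE 1.39, adjusted p = 0.0476). The complement components C1qb (12.1, 21.9 and 18.97 FPKM in atria and 28.8, 134 and 1.98 in HO parts) and C1qc (7.18, 13.8 and 12.6 FPKM in atria and 20.7, 108 and 1.98 in HO parts) were highest in HO part 2 and lowest of all libraries in HO part 3, and were not called. The macrophage median was 0.91 to 2.65 in the fits without 1 library, lowest without HO part 2. The macrophage count was 3, 2 or 2 without E11.5 atria replicate 1, 2 or 3 and 10 without HO part 3. The call of Lyz2 was lost on leaving out 1 library (adjusted p = 0.13 to 0.156 without E11.5 atria 1, 2 or 3) and under 5 other settings.

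**Figure D5:**
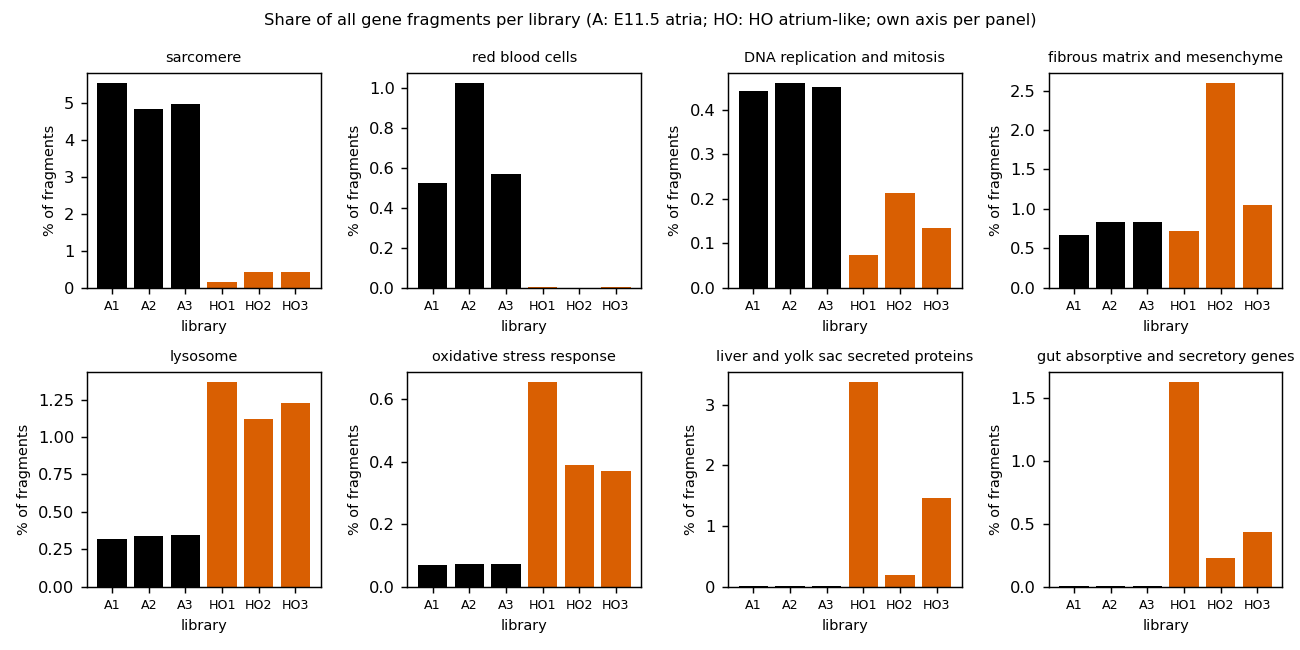
Share of all fragments on genes taken by 8 gene lists (vertical axis in percent, starting at 0 and with its own range in each panel) in E11.5 atria 1 to 3 (black bars) and HO atrium-like parts 1 to 3 (orange bars), 1 bar per library. The sarcomere list falls from 4.82% or more to 0.433% or less, and the liver and yolk sac list rises from 0.00476% or less to 3.36%, 0.189% and 1.45%.

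The lists of endoderm genes had the largest median rises. Of 21 liver and yolk sac genes 19 were tested, and all 19 were called higher (median 10.58, or 9.75 with 7 genes of at most 3 fragments over the atria set at their bound). Of 20 gut genes 19 were tested, with 18 called higher and 0 lower (median 10.59, or 9.37 with 7 genes at their bound). In both lists the 7 genes passed the filter only through HO parts, so a call of them could only be a rise. The liver and yolk sac list took 0.00349% to 0.00476% of fragments in atria and 3.36%, 0.189% and 1.45% in HO parts, and the gut list 0.00329% to 0.00545% and 1.62%, 0.228% and 0.434%. HO part 2 was the lowest of the HO parts in both lists and still lay far above the atria. Afp, alpha-fetoprotein, which yolk sac and fetal liver secrete, stood at 0.637, 0.157 and 0.118 FPKM in atria and 3741, 78.6 and 1453 in HO parts (log2 fold change 12.76, SE 1.996, adjusted p = 0.00709). Apoa1, the main protein of high-density lipoprotein, stood at 1.63, 0.871 and 0.312 FPKM in atria and 7215, 432 and 1986 in HO parts (log2 fold change 12.02, SE 1.63, adjusted p = 0.00513). Trf, the iron carrier transferrin, stood at 11.7, 10.9 and 15.1 FPKM in atria and 1719.9, 91.7 and 931 in HO parts (log2 fold change 6.46, SE 1.16, adjusted p = 0.0106). Apoa4, an apolipoprotein of the intestine, went from 0.373, 0.143 and 0.0185 to 3249.9, 321 and 1067 FPKM (log2 fold change 13.32, SE 1.61, adjusted p = 0.00374). Ttr, the thyroid hormone carrier transthyretin, went from 1.26, 0.937 and 0.533 to 532, 27.7 and 318 FPKM (log2 fold change 8.58, SE 1.33, adjusted p = 0.00689). Alb, albumin, the main product of mature hepatocytes, was far less abundant than Afp in HO parts, at 0.0685, 0.0144 and 0 FPKM in atria and 18.9, 0.358 and 64.6 in HO parts (log2 fold change 10.05, SE 2.20, adjusted p = 0.0182), and HO part 2 was the lowest HO library. Calls lost without 1 library were Trf (adjusted p = 0.052 to 0.0574) and Alb (adjusted p = 0.0704 to 0.0801) without E11.5 atria 1, 2 or 3, and the list kept 12 calls without E11.5 atria replicate 1. With limma-voom 2 of the 19 liver and yolk sac genes and 6 of the 19 gut genes were called, and the single calls that limma-voom or other settings ended were Afp (1), Apoa1 (1), Apoa4 (1), Ttr (1) and Alb (2).

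The promoters of Fgb, Alb and Afp are shown because they hold the letters GTTAAT, the core of the motif of HNF1, a factor of liver and gut, on either strand (ATTAAC on the other strand), in capitals. The windows run from 250 bases before to 50 after the gene start (RefSeq, GRCm38.p6, chr3:83049814-83050113 on the minus strand, chr5:90460620-90460919 and chr5:90490464-90490763 on the plus strand), and the letters start at positions -29, -32 and -105 from the gene start. They stood in 8 of 19 promoters that matched 17 liver and yolk sac genes (42.1%), beside 7.1% of all 32851 promoters and 6.23% of the promoters of genes called higher. GTTAAT shares no full match with the CArG box, and a match is a description of the letters, not of binding.
Fgb: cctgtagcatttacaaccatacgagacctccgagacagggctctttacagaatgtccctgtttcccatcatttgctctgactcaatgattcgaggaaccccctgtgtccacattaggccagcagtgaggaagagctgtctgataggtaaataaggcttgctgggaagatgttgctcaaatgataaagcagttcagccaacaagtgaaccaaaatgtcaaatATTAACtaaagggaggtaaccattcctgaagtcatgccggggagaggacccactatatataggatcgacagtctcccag
Alb: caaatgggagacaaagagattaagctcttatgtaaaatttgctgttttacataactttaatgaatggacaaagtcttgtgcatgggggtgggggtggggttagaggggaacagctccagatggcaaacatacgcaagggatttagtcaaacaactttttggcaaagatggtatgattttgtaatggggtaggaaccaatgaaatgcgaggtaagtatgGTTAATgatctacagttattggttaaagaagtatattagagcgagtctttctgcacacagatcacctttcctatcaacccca
Afp: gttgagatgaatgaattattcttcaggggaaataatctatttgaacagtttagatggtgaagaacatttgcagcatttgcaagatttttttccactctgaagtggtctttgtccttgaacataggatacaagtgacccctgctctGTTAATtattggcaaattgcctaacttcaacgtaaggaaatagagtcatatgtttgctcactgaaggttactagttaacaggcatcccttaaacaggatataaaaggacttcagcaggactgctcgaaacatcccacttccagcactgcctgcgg

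The gut genes described here were high in all HO parts. Fabp1, the fatty acid binding protein of liver and gut, stood at 0.552, 0.406 and 0.361 FPKM in atria and 8851, 794 and 639 in HO parts (log2 fold change 13.21, SE 1.77, adjusted p = 0.00491). Fabp2, its intestinal relative, stood at 0.644, 0.0615 and 0.0319 FPKM in atria and 4161, 718 and 1212 in HO parts (log2 fold change 13.22, SE 1.57, adjusted p = 0.00361). Lgals4, an intestinal galectin, stood at 0.295, 0.0413 and 0.15 FPKM in atria and 1116, 171 and 285 in HO parts (log2 fold change 11.90, SE 1.33, adjusted p = 0.00329, on a locus that overlaps its copy Lgals6). HO part 1 was the highest library for all 3. Tff3, a trefoil peptide of goblet cells, was at 0.185, 0 and 0 FPKM in atria and 303, 49.7 and 373 FPKM in HO parts, a ratio of 4089-fold (95% counting interval 1399 to 19829). Limma-voom ended the calls of Fabp1, Fabp2, Lgals4 and Tff3.

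The factors that specify endoderm rose with its products. Of 18 such genes 16 were tested, with 14 called higher and 2 lower (median 8.48, or 7.25 with 9 genes at their bound). The 9 genes passed the filter only through HO parts and could only be called higher. Hnf4a, a nuclear receptor of liver, gut and visceral endoderm, was at 0.00607, 0 and 0 FPKM in atria and 49.5, 9.86 and 23.7 FPKM in HO parts, a ratio of 13972-fold (95% counting interval 2507 to 551921). Cdx2, the homeobox factor of intestine, was at 0, 0.0277 and 0 and 61.3, 12.3 and 26.1 FPKM, a ratio of 3852-fold (95% counting interval 1066 to 31818). Foxa2, a pioneer factor of endoderm, was at 0.0358, 0 and 0 and 3.94, 7.36 and 8.62 FPKM, a ratio of 604-fold (95% counting interval 206 to 2933), and unlike the others it was lowest in HO part 1. Creb3l3, a factor of liver and gut, stood at 0.557, 0.481 and 0.337 FPKM in atria and 124, 16.7 and 39.8 in HO parts (log2 fold change 7.31, SE 0.99, adjusted p = 0.00514). Nr1h4, the bile acid receptor, stood at 0.447, 0.469 and 0.606 FPKM in atria and 32.1, 2.27 and 13.8 in HO parts (log2 fold change 5.26, SE 1.05, adjusted p = 0.0141). Hhex and Prox1, which endocardium and heart muscle also use, fell. Hhex went from 6.75, 7.96 and 7.79 to 2.11, 3.35 and 3.57 FPKM (log2 fold change -1.16, SE 0.28, adjusted p = 0.0248). Prox1 went from 7.47, 6.45 and 7.68 to 0.549, 1.68 and 2.6 FPKM (log2 fold change -2.03, SE 0.49, adjusted p = 0.0248). Without 1 library the calls lost were Nr1h4 (adjusted p = 0.061 to 0.0689), Hhex (adjusted p = 0.0825 to 0.103) and Prox1 (adjusted p = 0.0716 to 0.0832) without E11.5 atria 1, 2 or 3. With limma-voom 6 factors were called higher, and 9 without E11.5 atria replicate 3. Other settings ended the calls of Hnf4a (1), Cdx2 (1), Creb3l3 (1), Nr1h4 (1) and Hhex (1).

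Epithelial junction and keratin genes had 17 of 20 members called higher and 0 lower (median 6.61), and 17 calls held in all 6 fits without 1 library. Of the 20, 2 had at most 3 fragments over 1 group and could be called in only 1 direction. Epcam, the epithelial adhesion molecule, stood at 0.247, 0.259 and 0.224 FPKM in atria and 701, 107 and 409 in HO parts (log2 fold change 10.95, SE 1.02, adjusted p = 0.00205). Krt8, a keratin of simple epithelia, stood at 24.1, 23.0 and 18.3 FPKM in atria and 1035, 428 and 1220.0 in HO parts (log2 fold change 5.57, SE 0.52, adjusted p = 0.00211). Krt18, its partner, stood at 32.9, 31.1 and 30.3 FPKM in atria and 996, 330.0 and 1277 in HO parts (log2 fold change 5.01, SE 0.59, adjusted p = 0.00361). Krt19 stood at 33.6, 25.8 and 24.2 FPKM in atria and 488, 145 and 349 in HO parts (log2 fold change 3.79, SE 0.55, adjusted p = 0.00577). Atria held clear levels of the keratins, while Epcam was near 0 in them. With limma-voom 8 genes of the list were called, Epcam not among them.

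Of 18 genes of complement and coagulation proteins, most of which the liver makes, 11 were tested, with 8 called higher and 1 lower (median 4.57). Of the 11, 2 had at most 3 fragments over 1 group and could be called in only 1 direction. Kng1, kininogen, stood at 0.039, 0.0102 and 0.0106 FPKM in atria and 45.7, 2.37 and 50.8 in HO parts (log2 fold change 10.82, SE 1.61, adjusted p = 0.00622). Cfb, complement factor B, stood at 0.103, 0.0216 and 0 FPKM in atria and 39.0, 6.23 and 22.2 in HO parts (log2 fold change 9.25, SE 1.28, adjusted p = 0.00528). Cfi, complement factor I, stood at 0.463, 0.257 and 0.489 FPKM in atria and 36.1, 2.78 and 17.7 in HO parts (log2 fold change 5.81, SE 1.07, adjusted p = 0.0114). Again HO part 2 was lowest of the HO parts. F10, coagulation factor X, stood at 1.13, 1.79 and 0.423 FPKM in atria and 31.5, 1.33 and 14.7 in HO parts (log2 fold change 4.12, SE 1.20, adjusted p = 0.0429), with HO part 2 inside the range of the atria. F5, factor V, fell from 0.608, 0.586 and 0.696 to 0.0094, 0.0756 and 0.0579 FPKM (log2 fold change -3.60, SE 0.75, adjusted p = 0.0159). The count of rises was 4, 3 or 3 without E11.5 atria replicate 1, 2 or 3, 4 without HO part 3 and 3 with limma-voom, and the single calls lost on leaving out 1 library were Cfi (adjusted p = 0.0537 to 0.0575) and F5 (adjusted p = 0.0617 to 0.0665) without E11.5 atria 1, 2 or 3. The call of F10 (adjusted p = 0.0877 to 0.137) was also lost without E11.5 atria 1, 2 or 3 or HO part 1 or 3. The alternatives ended the calls of Kng1 (1), Cfb (1), Cfi (1), F10 (4) and F5 (1).

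The neural, skeletal muscle and cartilage lists had their highest mean level in HO part 2, but 1 gene in all was called and atria also held transcripts of many members. The neural and neural crest list had 0 of 11 genes called higher and 0 lower, and its mean log2 CPM was -0.64 to -0.02 in atria and -2.14, 2.11 and -0.74 in HO parts. Tubb3, the tubulin of neurons, was at 4.81, 1.23 and 2 FPKM in atria and 0.301, 42.9 and 1.54 in HO parts. Stmn2, a protein of growing axons, was at 0.549, 0.717 and 1.04 FPKM in atria and 0.495, 17.5 and 0.952 in HO parts. Nes, the filament of neural stem cells and young muscle, was at 19.4, 14.9 and 17.4 FPKM in atria and 12.3, 18.1 and 3.54 in HO parts. The skeletal muscle list likewise had 0 and 0 of 10 genes called, with Myog and Myod1, the factors of myogenesis, at 0.649, 1.3 and 7.95 FPKM in atria and 0, 29.0 and 0.0415 in HO parts and at 0.061, 0.817 and 3.42 FPKM in atria and 0, 10.2 and 0 in HO parts. Both were highest in HO part 2, HO part 1 had no fragment of either, and the atria ranged widely. Acta1, Tnni2 and Tnnt3, which embryonic heart also expresses, were at 577, 489 and 405 FPKM in atria and 168, 192 and 523 in HO parts, at 44.2, 31.4 and 30.6 FPKM in atria and 1.45, 21.1 and 2.33 in HO parts and at 14.3, 13.7 and 12.9 FPKM in atria and 0.436, 9.96 and 0.863 in HO parts, and none was called. In the cartilage list 1 of 11 genes was called higher, Col9a2, at 2.69, 2.82 and 2.24 FPKM in atria and 5.17, 43.4 and 10.05 in HO parts (log2 fold change 2.99, SE 0.72, adjusted p = 0.0245). Its call was lost on leaving out 1 library (adjusted p = 0.0903 to 0.0949 without E11.5 atria 1, 2 or 3) and under 2 other settings. Col9a3 (3.42, 2.72 and 3.77 FPKM in atria and 0, 54.9 and 3.92 in HO parts), Col9a1 (5.93, 6.73 and 4.41 FPKM in atria and 0.0928, 6.76 and 1.63 in HO parts) and Col2a1, the collagen of cartilage matrix (23.5, 27.0 and 23.2 FPKM in atria and 0, 4.6 and 0.904 in HO parts), were not called.

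Genes of stem cells were mostly too low to test. Of 6 tested pluripotency and germ cell genes 3 were called higher and 0 lower. Sall4 and Tdgf1 had at most 3 fragments over the atria. Both passed the filter only through HO parts and could only be called higher. Sall4, a factor of stem cells and yolk sac, was at 0, 0.0176 and 0 and 0.73, 6.48 and 6.05 FPKM (ratio 880.3-fold (95% counting interval 301 to 4272)), and Tdgf1, the Nodal co-receptor, at 0, 0.0154 and 0 and 1.63, 2.45 and 0.957 FPKM (ratio 369-fold (95% counting interval 65.7 to 14619)). Klf4, a factor that stem cells share with gut and skin epithelium, stood at 2.05, 1.82 and 1.41 FPKM in atria and 19.9, 16.9 and 33.1 in HO parts (log2 fold change 3.91, SE 0.36, adjusted p = 0.00201). Lin28b was at 0.994, 1.46 and 1.51 FPKM in atria and 0.0517, 0.0218 and 1.18 in HO parts and was not called. Limma-voom ended the call of Sall4.

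The media contained agonists of several pathways, and target genes of these pathways were compared. Of 12 targets of LIF and Stat3, 8 were called higher and 0 lower (median 3.59), and all 12 had a positive log2 fold change. Socs3, the feedback inhibitor of the pathway, stood at 3.94, 2.81 and 3.72 FPKM in atria and 18.98, 83.3 and 40.9 in HO parts (log2 fold change 3.87, SE 0.49, adjusted p = 0.00437). Junb, an early response factor, stood at 2.95, 2.79 and 1.87 FPKM in atria and 68.2, 119 and 73.4 in HO parts (log2 fold change 5.24, SE 0.29, adjusted p = 0.00123). Cebpb, a factor of the acute phase, stood at 14.5, 12.8 and 14.6 FPKM in atria and 115, 260.4 and 151 in HO parts (log2 fold change 3.79, SE 0.27, adjusted p = 0.00132). HO part 2 was the highest library for these genes and for Stat3 itself, which rose from 21.4, 19.7 and 18.9 to 41.5, 83.9 and 45.1 FPKM (log2 fold change 1.65, SE 0.24, adjusted p = 0.00575). Their calls held in all 6 fits without 1 library. The macrophage list was also highest in HO part 2 (mean log2 CPM of 4.29, 5.51 and 1.78 in HO parts 1, 2 and 3), and its part in the rise was not tested.

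Targets of the other agonists were called in both directions, beside 16.0% called higher and 8.81% called lower over all tested genes. Of 12 Wnt targets 2 were called higher and 2 lower, and 7 had a positive log2 fold change. The rises, named after their values were seen, were those of Sp5, a factor that Wnt signaling induces, at 0.243, 0.17 and 0.426 FPKM in atria and 1.59, 2.1 and 1.61 in HO parts (log2 fold change 2.82, SE 0.56, adjusted p = 0.0143), and of Rnf43, a ligase that removes Wnt receptors, at 0.11, 0.216 and 0.27 FPKM in atria and 7.34, 2.4 and 5.89 in HO parts (log2 fold change 4.94, SE 0.65, adjusted p = 0.00467). Axin2, the general feedback target of beta-catenin, was at 0.637, 1.11 and 1.09 FPKM in atria and 0.673, 0.776 and 0.866 in HO parts and was not called. Ccnd1, cyclin D1, on a locus that overlaps LTO1, fell from 28.0, 23.0 and 18.6 to 4.54, 8.49 and 5.44 FPKM (log2 fold change -1.77, SE 0.24, adjusted p = 0.00523). Apcdd1, a Wnt inhibitor, fell from 7.99, 7.87 and 6.87 to 0.808, 3.08 and 1.24 FPKM (log2 fold change -2.04, SE 0.45, adjusted p = 0.0182). Nkd1 (5.07, 5.8 and 5.51 FPKM in atria and 1.12, 6.79 and 3.01 in HO parts) and Lef1 (5.76, 4.61 and 4.69 FPKM in atria and 0.313, 4.78 and 3.76 in HO parts) were not called. Of 12 BMP targets, of which 5 had a positive log2 fold change, 1 was called higher and 1 lower, the former Hamp, the liver hormone hepcidin, and the latter Id2, an inhibitor of differentiation factors, at 307, 276 and 246 FPKM in atria and 98.0, 106 and 129 in HO parts (log2 fold change -1.14, SE 0.18, adjusted p = 0.00723). Id1 was at 41.7, 37.9 and 31.4 FPKM in atria and 18.6, 50.6 and 57.0 in HO parts and Id3 at 471, 464 and 445 FPKM in atria and 54.3, 358 and 190.1 in HO parts. Smad6, the inhibitory Smad, was at 54.0, 45.2 and 39.8 FPKM in atria and 4.91, 50.5 and 16.03 in HO parts, and HO part 1 was the lowest library for each of the 3. Of 12 FGF targets 2 were called higher and 1 lower, and 10 had a positive log2 fold change (median 0.27, or -0.03 to 0.52 in the fits without 1 library). Spry4, a feedback inhibitor named after its values were seen, rose from 1.51, 1.94 and 1.73 to 2.43, 13.7 and 5.15 FPKM (log2 fold change 2.13, SE 0.55, adjusted p = 0.0292). Phlda1 rose from 9.66, 6.89 and 7.55 to 29.0, 45.8 and 34.3 FPKM (log2 fold change 2.33, SE 0.21, adjusted p = 0.00198). Etv1, a factor also of fast-conducting atrial muscle, fell from 12.2, 11.4 and 10.9 to 0.838, 1.57 and 1.3 FPKM (log2 fold change -3.07, SE 0.23, adjusted p = 0.00133). The feedback genes Dusp6 (31.9, 34.9 and 26.7 FPKM in atria and 27.5, 58.2 and 16.5 in HO parts), Dusp4 (7.49, 5.9 and 3.35 FPKM in atria and 7.4, 47.2 and 9.68 in HO parts) and Spry1 (12.8, 14.5 and 14.9 FPKM in atria and 10.1, 13.2 and 18.2 in HO parts) were not called. Calls lost on leaving out 1 library were Sp5 (adjusted p = 0.0657 to 0.0708) without E11.5 atria 1 or 2. The calls of Apcdd1 (adjusted p = 0.0551 to 0.0714) and Spry4 (adjusted p = 0.0572 to 0.111) were also lost without E11.5 atria 1, 2 or 3 or HO part 3. Alternative settings removed the call of Spry4 (3).

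Most genes of the hypoxia, oxidative stress, lysosome and interferon lists rose, and fewer of the unfolded protein response. In the hypoxia list, targets of Hif1, 13 of 16 genes were called higher and 0 lower (median 2.98), and 12 kept the call in all 6 fits without 1 library. Egln3, an oxygen sensor that Hif1 induces, stood at 2.71, 2.06 and 2.64 FPKM in atria and 111, 102 and 128 in HO parts (log2 fold change 5.70, SE 0.25, adjusted p = 0.00123). Ndrg1 stood at 1.96, 2.03 and 2.2 FPKM in atria and 135, 37.0 and 159 in HO parts (log2 fold change 5.97, SE 0.67, adjusted p = 0.00332). Bnip3, which removes mitochondria, stood at 93.8, 57.9 and 48.7 FPKM in atria and 244, 227 and 446 in HO parts (log2 fold change 2.37, SE 0.39, adjusted p = 0.00847). HO part 3 was the highest for all of them. Ero1l, an oxidase of the endoplasmic reticulum, rose from 12.2, 10.4 and 9.04 to 183, 114 and 313 FPKM (log2 fold change 4.46, SE 0.46, adjusted p = 0.00254).

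Of 16 oxidative stress genes, targets of Nrf2, 15 were called higher and 0 lower (median 4.79), with 12 calls held in all 6 fits without 1 library. Of the 16, 3 had at most 3 fragments over 1 group and could be called in only 1 direction. Gstm1, a glutathione transferase also abundant in liver, stood at 13.9, 10.6 and 13.8 FPKM in atria and 1408, 312 and 796 in HO parts (log2 fold change 6.29, SE 0.72, adjusted p = 0.00339). Hmox1, heme oxygenase, stood at 13.8, 15.5 and 16.9 FPKM in atria and 122, 344 and 107 in HO parts (log2 fold change 3.75, SE 0.44, adjusted p = 0.0036). Gstm1 was highest in HO part 1 and Hmox1 in HO part 2. Gstp1, another transferase and a close copy of Gstp2, rose from 212, 228 and 229.8 to 941, 508 and 533 FPKM (log2 fold change 1.78, SE 0.34, adjusted p = 0.0124). Cat, catalase, rose from 42.1, 43.7 and 36.3 to 204, 84.4 and 99.1 FPKM (log2 fold change 1.90, SE 0.43, adjusted p = 0.0198). Ferritin, which stores iron, was among the most abundant transcripts of HO parts. Ftl1, the light chain, was at 2325, 2275 and 2285 FPKM in atria and 8408, 7052 and 7562 in HO parts (log2 fold change 1.93, SE 0.21, adjusted p = 0.00305). Fth1, the heavy chain, was at 605, 594 and 630.0 FPKM in atria and 3402, 2737 and 1709.8 in HO parts (log2 fold change 2.30, SE 0.32, adjusted p = 0.00529). Calls lost without 1 library were Gstp1 (adjusted p = 0.0575 to 0.0617) and Cat (adjusted p = 0.0779 to 0.0837) without E11.5 atria 1, 2 or 3.

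In the unfolded protein response 8 of 16 genes were called higher and 0 lower (median 0.88). The abundant chaperones of the endoplasmic reticulum were not among them. Hspa5 was at 396, 471 and 391 FPKM in atria and 309.9, 424 and 504 in HO parts. Hsp90b1 was at 231, 265 and 225 FPKM in atria and 173, 249 and 248 in HO parts. Calr was at 289.9, 329 and 309 FPKM in atria and 249, 312 and 294 in HO parts. For these 3 genes the groups overlapped, while Pdia6, at 273, 311 and 281 FPKM in atria and 142, 249.7 and 211 in HO parts, was lower in all HO parts. Of 20 lysosomal genes, 19 were called higher and 0 lower (median 2.29), 15 of them in all 6 fits without 1 library, and the list took 0.318% to 0.346% of fragments in atria and 1.36%, 1.12% and 1.23% in HO parts. Ctsd, cathepsin D, stood at 163, 175 and 182 FPKM in atria and 789, 825 and 795 in HO parts (log2 fold change 2.39, SE 0.16, adjusted p = 0.00123). Cd63, a membrane protein of lysosomes and exosomes, stood at 155, 159 and 175 FPKM in atria and 766, 887 and 759 in HO parts (log2 fold change 2.47, SE 0.15, adjusted p = 0.00123). The 3 HO parts were within a narrow range for both genes. Ctsl, cathepsin L, rose from 97.1, 88.8 and 95.9 to 313, 311 and 388 FPKM (log2 fold change 2.02, SE 0.18, adjusted p = 0.00192). Lamp1, the main lysosomal membrane protein, rose from 171, 188 and 176 to 440.1, 286 and 328 FPKM (log2 fold change 1.18, SE 0.26, adjusted p = 0.0185). On leaving out 1 library the call was lost for Lamp1 (log2 fold change 0.86 to 1.20) without E11.5 atria 1, 2 or 3 or HO part 1, and other settings ended that of Lamp1 (2).

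All 16 genes of interferon response and antigen presentation were called higher (median 5.62), 15 of them in all 6 fits without 1 library. B2m, the light chain of class I major histocompatibility molecules, stood at 81.7, 76.8 and 77.6 FPKM in atria and 938, 679 and 559.9 in HO parts (log2 fold change 3.41, SE 0.29, adjusted p = 0.00168). H2-K1, a class I heavy chain, stood at 4.14, 2.57 and 2.38 FPKM in atria and 408, 166 and 293 in HO parts (log2 fold change 6.80, SE 0.56, adjusted p = 0.00161). H2-D1, another heavy chain, stood at 7.55, 8.25 and 8.89 FPKM in atria and 308, 199 and 237 in HO parts (log2 fold change 5.12, SE 0.31, adjusted p = 0.00123). HO part 1 was the highest library for the 3 genes and HO part 2 the lowest HO library for both heavy chains. Bst2, tetherin, an interferon-induced block to virus release, rose from 11.6, 7.87 and 12.1 to 228, 215 and 311 FPKM (log2 fold change 4.75, SE 0.30, adjusted p = 0.00123). The class I heavy chain genes are close copies of each other, so that the division of fragments among them is uncertain, and B2m overlaps Patl2 on the opposite strand.

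Retinoic acid and Hox genes were compared as genes of patterning, and no position along the body axis was derived from them. In the retinoic acid pathway 6 of 15 genes were called higher and 1 lower (median 1.77), the fall being that of Aldh1a2 (log2 fold change -3.65). The median was 0.32 without HO part 2, and the count of rises was 3, 3 or 4 without E11.5 atria replicate 1, 2 or 3. Rbp2, the retinol carrier of intestinal cells, stood at 0.694, 1.57 and 0.275 FPKM in atria and 2052, 252 and 339 in HO parts (log2 fold change 10.31, SE 1.43, adjusted p = 0.00532). Rdh10, the first enzyme of retinoic acid synthesis, stood at 3.69, 7.76 and 6.23 FPKM in atria and 88.3, 38.9 and 89.2 in HO parts (log2 fold change 3.84, SE 0.49, adjusted p = 0.00444). Of 17 tested Hox genes 4 were called lower and 1 higher. Hoxa5, a gene of the posterior heart field, was at 3.76, 12.1 and 10.2 FPKM in atria and 0, 0.817 and 0 in HO parts and was not called. Hoxa2 fell from 2.06, 4.38 and 2.48 to 0.157, 0.806 and 0.554 FPKM (log2 fold change -2.44, SE 0.67, adjusted p = 0.0352). Hoxb2 was at 5.59, 7.09 and 6.95 FPKM in atria and 3.49, 9.7 and 6.19 in HO parts, with no call. Hoxd8 rose from 0.105, 0.261 and 0.428 to 1.1, 1.87 and 0.74 FPKM (log2 fold change 2.37, SE 0.72, adjusted p = 0.0484). Hoxa5 and Hoxc5 were lowest of the atria in replicate 1, at 3.76, 12.1 and 10.2 FPKM for Hoxa5 and 0.3, 5.16 and 4.13 FPKM for Hoxc5. Losses without 1 library were Hoxa2 (adjusted p = 0.0762 to 0.139) without E11.5 atria 1, 2 or 3 or HO part 3. The call of Hoxd8 (adjusted p = 0.0653 to 0.158) was also lost without E11.5 atria 1, 2 or 3 or HO part 1, 2 or 3. Among the alternatives, some ended the calls of Rbp2 (1), Hoxa2 (1) and Hoxd8 (5).

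Housekeeping transcripts gave a view of the most abundant RNAs. Ppia, named with the index 2 for a repeated locus in the table, was at 4065, 3591 and 3823 FPKM in atria and 1847, 2352 and 1834 in HO parts, and Actb, beta actin, at 1873, 2074 and 1825 FPKM in atria and 3839, 3089.9 and 3158 in HO parts. Tmsb4x, thymosin beta 4, was at 2005, 1835 and 1871 FPKM in atria and 2466, 2512 and 2952 in HO parts. Rn45s, the ribosomal RNA precursor, was at 3469, 2878 and 3081 FPKM in atria and 3632, 3283 and 3984 in HO parts. The 10 most abundant genes of atria held Myl7, Actc1, Tnnc1, Nppa, Hbb-y and Hba-a1, and those of HO parts held Ftl1, Fth1, Apoa1, Fabp1 and Fabp2.

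Across symbol stems with at least 15 tested genes (111 stems), the share of members called higher was largest for Cyp, the cytochromes P450 (23 of 34 higher and 1 lower, 67.6%), for H, most of which are H2 histocompatibility genes (21 of 37, 56.8%), and for Mfsd, transporters of the major facilitator family (9 of 20, 45.0%). Claudins of tight junctions (Cldn) and Krüppel-like factors (Klf) followed at 7 of 16 each (43.8%), and Clec lectins, Krt keratins and Tm tied at 6 of 15 (40.0%). The share called lower was largest for kinesins (Kif, 10 of 35, 28.6%), for the stem E, which joins E2f factors and unnamed clones (8 of 30, 26.7%), for histone cluster genes (Hist, 15 of 64, 23.4%), and for Rgs (4 of 18, 22.2%), Klhl (7 of 33, 21.2%) and Rad (4 of 19, 21.1%). These shares stand beside 16.0% called higher and 8.81% called lower of all tested genes.

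The same contrast in the other chamber, HO ventricle-like parts against E11.5 ventricles, shares no library with the atrial one and called 2859 of 15094 genes (18.9%), 1749 higher (11.6%) and 1110 lower (7.35%). The parts of both chambers may come from the same HOs and hearts, so the contrasts cannot be taken as independent. Genes called higher in both contrasts numbered 1146, which is 46.5% of the atrial and 65.5% of the ventricular rises. Genes called lower in both numbered 689, or 50.7% of the atrial and 62.1% of the ventricular falls. Opposite calls were made for 2 of the atrial rises and 8 of the atrial falls. For Myl7 the log2 fold change was -5.16 between atrial pieces and -1.94 between ventricular pieces, for Myh6 -4.26 and -1.03, for Shox2 -4.02 and 4.90, for Nr2f2 -1.72 and 1.37, and for Tbx5 -3.18 and -0.32. Whether the contrasts differ for these genes was not tested.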

How the data were processed

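RNA was measured by paired-end RNA-seq in 3 libraries of E11.5 atria and 3 of heart organoid (HO) atrium-like parts, grouped by their labels. The authors mapped reads with STAR to mm10 and deposited expected counts and FPKM values per gene in 1 table. The counter, annotation and use of strand are not given in the sources used here, and the labels and the methods name different library kits. Fractional values made up 23.8% of the count values, and all counts were rounded. Of the gene names, 1050 carry a number for a repeated locus. Annotation columns of the table gave KEGG and GO terms, a source chosen after the files were seen.

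Genes were filtered with edgeR's filterByExpr (minimum count 10), scaled by TMM and tested with the quasi-likelihood test of edgeR 4.0.16 (R 4.3.3) on the 6 libraries. The test was also run on simulated counts that gave both groups the same dispersion per gene. The coefficient of biological variation was 0.238 in atria and 0.629 in HO parts, so the simulation does not cover this unequal spread. Totals of 23971258 to 30540993 fragments put the floor of 3 counts at 0.0958 to 0.147 CPM, and "at least" folds use that floor per library. Intervals cover counting error only. Alternatives were other normalizations, filters and library sizes, DESeq2 1.42.0, limma 3.58.1 on voom weights or log2 FPKM with a pseudocount of 1 or 0.1, all 12 libraries, other thresholds, a replicate block, and leaving out each library. An adjusted p that DESeq2 gave as NA was left out. Named genes were the 10 largest rises and falls (at least 5 CPM in the higher group, groups not overlapping), the 4 most abundant members of each of the 41 lists, members called against the direction of their list, the 10 most abundant genes of each group, and fixed key genes, of which some are not reported here. The members and lists were chosen with earlier results of these data known. Figures were drawn with matplotlib 3.10.9.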

Additional observations from a re-analysis of the deposited data

How the results depend on the processing

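Called genes numbered 3821 (2462 higher, 1359 lower) and 1502 (1030.0 higher, 472 lower) at an adjusted p under 0.01, while limma on log2(FPKM + 0.1) called 2098 lower. Leaving out 1 library gave 1662 to 5495 called genes, 1148 to 3041 higher and 514 to 2454 lower, with the fewest without E11.5 atria replicate 1 and the most without HO atrium-like replicate 2. The higher share of calls was 64.4% in edgeR, 50.8% in limma-voom, 51.5% and 51.7% in limma on log2(FPKM + 1) and log2(FPKM + 0.1), and 55.3% without HO part 2.

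List medians that changed sign under other settings were those of cushion genes (-0.44 with limma-voom, -0.51 and -0.71 with limma on FPKM + 1 and FPKM + 0.1, -0.54 with the replicate block), neural genes (-0.44 at a minimum count of 50, -0.72, -0.44 on FPKM + 0.1 and -0.69 with the block), skeletal muscle (-0.94 at a minimum count of 50, -1.62, -0.042, -0.85 and -1.70) and FGF targets (-0.026 and -0.0041 on FPKM + 1 and FPKM + 0.1). Leaving out 1 library gave medians of -0.043 to 0.72 for fatty acid oxidation, -0.89 to 0.72 for cushion, -0.34 to 0.77 for basement membrane, -1.36 to 1.42 for neural, -4.06 to 2.34 for skeletal muscle, -0.59 to 1.10 for cartilage and -0.035 to 0.52 for FGF targets. The cause was not tested. Of the named genes with a printed fold change, none changed sign under any setting. Replicate numbers did not pair the samples (correlations of deviations 0.053, 0.090 and -0.017), and the fit with the replicate block called 2806 genes, 1777 higher and 1029 lower.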

Other observations

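Annotated pathways gave a broader view of the functions that moved, as shares of their tested genes beside 16.0% called higher and 8.81% called lower over all genes. Of 305 KEGG pathways, the largest shares called higher were in ascorbate and aldarate metabolism (15 of 18 genes), retinol metabolism (37 of 45), graft-versus-host disease (22 of 28), metabolism of xenobiotics by cytochrome P450 (38 of 49), allograft rejection and autoimmune thyroid disease (22 of 29 each) and chemical carcinogenesis (44 of 59). The largest shares called lower were in DNA replication (19 of 35), mismatch repair (11 of 22), African trypanosomiasis (10 of 28), hypertrophic cardiomyopathy (27 of 79), dilated cardiomyopathy (27 of 83), the Fanconi anemia pathway (15 of 50) and cardiac muscle contraction (20 of 68).

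Of 1090 GO processes, the largest shares called higher were in the xenobiotic metabolic process (25 of 37), T cell mediated cytotoxicity (18 of 27), cholesterol efflux (13 of 20), negative regulation of viral genome replication (20 of 33) and the response to virus (27 of 47). The largest shares called lower were in sarcomere organization (24 of 42), regulation of heart rate (15 of 28), regulation of heart rate by cardiac conduction (15 of 31), cardiac muscle contraction (23 of 48), hydrogen peroxide catabolism (10 of 22) and initiation of DNA replication (9 of 20). Pathways share genes, so these counts are not independent of each other, and no enrichment was tested. The called members of each term are not given here, so a term's name need not name the function that moved. Hydrogen peroxide catabolism had many members called lower, while 15 of 16 genes of the oxidative stress list were called higher.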
